A study of Homo sapiens with 12 samples.

Results

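The 41 genes described here encode the enzymes of glycolysis and lactate handling, the regulators that set the flow of glucose carbon, the oxygen-sensing machinery and its target genes, and the oxidative and non-oxidative arms of the pentose phosphate pathway. They were given as a list of symbols, by pathway, with no measured value in the rule, and were matched to 41 of the 54127 Ensembl identifiers in the count files. RNA from C4-2 cells, a human castration-resistant prostate cancer line derived from LNCaP and grown in serum-containing medium, was sequenced after reverse transfection with a pool of siRNAs at 50 nM. The 6 siCHKA samples received a pool against CHKA, which encodes choline kinase alpha, the enzyme that phosphorylates choline at the start of phosphatidylcholine synthesis, and the 6 siNT samples received non-targeting siRNA. The comparison asks how the transcriptome of these cells depends on CHKA. All samples came from the same line and none was labelled as grown in low oxygen. With 1 pool, loss of CHKA and any other transcript the pool may hit cannot be told apart.

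Glycolysis converts glucose to pyruvate, which is reduced to lactate by lactate dehydrogenase or oxidized inside mitochondria by pyruvate dehydrogenase. The pentose phosphate pathway branches from the upper part of glycolysis and yields NADPH and ribose phosphate. When oxygen is plentiful, prolyl hydroxylases of the EGLN family mark the alpha subunits of the hypoxia-inducible factor (HIF) for destruction, and when oxygen is scarce the stabilized factor raises transcription of many glycolytic genes, of pyruvate dehydrogenase kinases and of its own hydroxylases.

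Between 10685184 and 24246055 reads per sample were counted on genes, so that 3 counts corresponded to 0.124 to 0.281 CPM (counts scaled to library size). CHKA itself was measured at 1.91 to 4.67 CPM in the siCHKA samples and at 36.7 to 43.3 CPM in the siNT samples. All 9 prostate epithelial markers examined were expressed, with a summed level of 4570 to 5705 CPM after siCHKA and 5491 to 6872 CPM after siNT, whereas 4 of 5 fibroblast, 2 of 3 endothelial and 4 of 5 leukocyte markers were below 1 CPM in every sample. The exceptions were COL1A1 at 23.8 to 30.0 CPM after siCHKA and 11.4 to 18.2 CPM after siNT, VWF at 1.13 to 1.82 and 2.05 to 3.65 CPM, and CD68 at 3.93 to 5.97 and 2.39 to 3.77 CPM, and their part in the results below was not tested. The siCHKA samples fell into a pair of sets over all genes. Replicates 1, 3 and 5 differed from each other by a chi-square per degree of freedom of 4.05 to 9.50, replicates 2, 4 and 6 by 2.39 to 4.09, and samples of different sets by 12.5 to 24.9. The siNT samples were uneven too, and differed from each other by 2.51 (replicates 5 and 6) to 30.9 (replicates 3 and 5). CHKA was at 1.91 to 2.34 CPM in replicates 1, 3 and 5 and at 2.27 to 4.67 CPM in replicates 2, 4 and 6, which overlap. Its log2 fold change was -4.27 and -3.61 with these sets, a difference not tested. No label gives a reason for the siCHKA sets. They were noticed in these same counts, so p-values from fits with 1 set do not allow for that choice and serve as description. For genes and ratios named below, a call or direction that differs between the sets is given for at least the set that departs from the fit over all samples, here or in the closing sections. In bulk RNA, fewer cells of a type and less RNA per cell cannot be told apart.

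At an adjusted p-value below 0.05 in edgeR's quasi-likelihood test, 16 of the 39 tested genes fell after siCHKA, 6 rose and 17 did not pass. The remaining genes, PDK4 and ADM, had 72 and 36 reads in all samples together and were left out by the expression filter. The same test called 62.2% of all 14501 genes tested (30.1% were lower and 32.1% higher), so the share of members called, 56.4%, was near the background, with lower genes outnumbering higher ones among the members. The median log2 fold change was -0.12 over the members and 0.035 over all genes tested. With scaling by library size alone, which moved the median of all genes to 0.19, 31.0% of all calls were lower instead of 48.5%, and 11 members were lower and 14 higher. Most changes were small. A change of at least 0.5 on the log2 scale was called lower in 6 members and higher in 3, beside 14.0% and 16.2% of all genes. The siCHKA and siNT values did not overlap in 16 of the 39 members, 12 of them lower and 4 higher. Over all genes tested they did not overlap in 40.6% (21.5% lower and 19.1% higher).

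**Figure D1:**
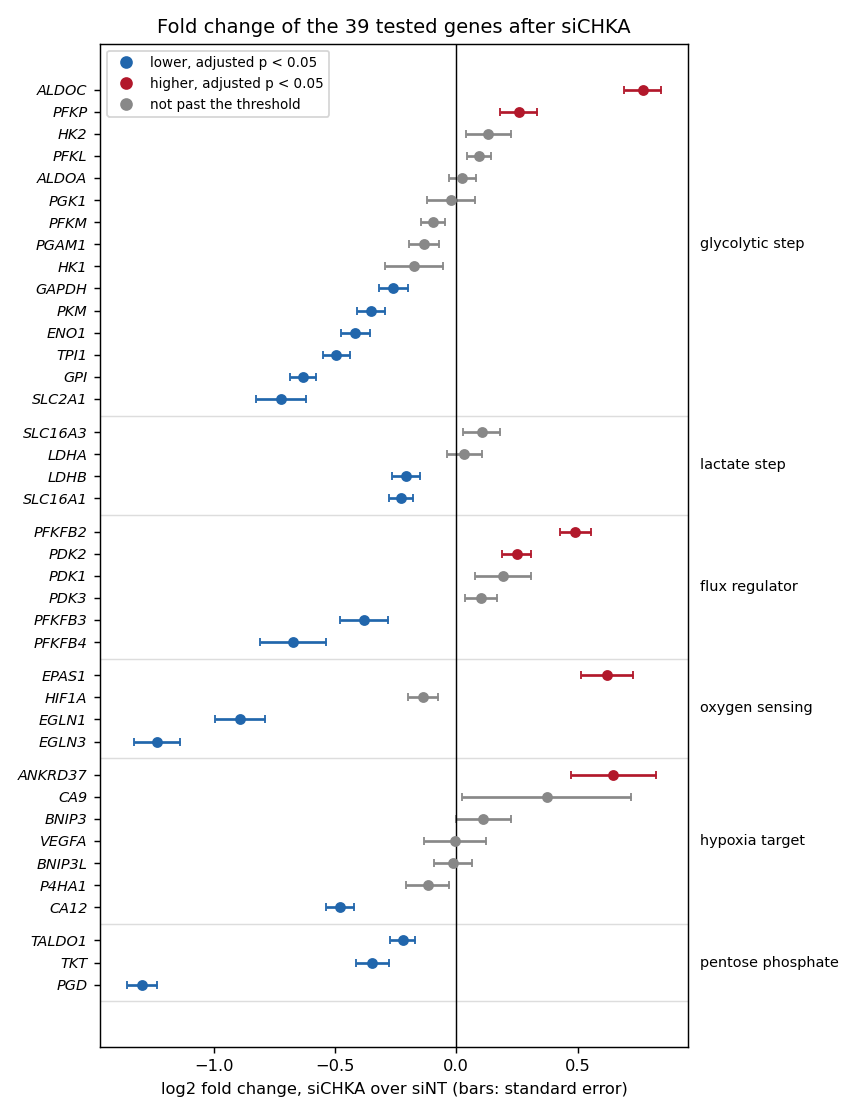
Log2 fold change of each tested gene after siCHKA (x axis; points, edgeR estimate; bars, standard error), grouped by role, with colour for the direction of genes past an adjusted p of 0.05. PGD at -1.30 and EGLN3 at -1.23 lie furthest to the left and ALDOC at 0.77 furthest to the right, and all 3 pentose phosphate genes lie left of 0.

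All 3 pentose phosphate genes fell, and PGD fell the most of any member. PGD (phosphogluconate dehydrogenase, an NADPH-yielding enzyme of the oxidative arm; ENSG00000142657, plus strand of chr1:10398592-10420511 in GRCh38) ranged from 93.9 to 120 CPM (median 101) after siCHKA and from 240 to 266 CPM (median 253) after siNT. Every siCHKA value lay far below every siNT value, and the siCHKA mean was 40.7% of the siNT mean (103 ± 10.0 against 253 ± 11.3 CPM; SD, n = 6 each). The fold change on the log2 scale was -1.30 ± 0.06 (standard error, adjusted p = 1.15e-11). TKT and TALDO1, the transketolase and transaldolase that exchange carbon between pentose and glycolytic sugars, moved less. TKT had a median of 348 CPM (319 to 416) after siCHKA and 445 CPM (433 to 496) after siNT, without overlap, and a log2 difference of -0.35 ± 0.07 (standard error, adjusted p = 0.000252). TALDO1 had a median of 210 CPM (201 to 221) and 250 CPM (220 to 260), a log2 fold change of -0.22 and an adjusted p of 0.00141, and its highest siCHKA sample just reached the lowest siNT sample. In all 3 genes, replicates 2, 4 and 6 lay below replicates 1, 3 and 5. The call held with either set, at -1.20 and -1.41 for PGD, -0.22 and -0.49 for TKT, and -0.17 and -0.27 for TALDO1 (replicates 1, 3 and 5, then 2, 4 and 6). With scaling by library size alone, TALDO1 was no longer called (-0.07, adjusted p = 0.21).

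Of the 15 genes for glucose uptake and the steps to pyruvate, 6 fell, 2 rose and 7 did not pass. SLC2A1, the main glucose transporter of most cancer cells (ENSG00000117394, minus strand of chr1:42925353-42958893), fell furthest. It ranged from 55.0 to 83.2 CPM (median 67.3) after siCHKA and from 99.0 to 135 CPM (median 109) after siNT. No siCHKA sample reached the siNT range, and replicates 1, 3 and 5 were the lowest. The fold change on the log2 scale was -0.72 ± 0.10 (standard error, adjusted p = 9.01e-06), at -0.96 with replicates 1, 3 and 5 and -0.53 with replicates 2, 4 and 6.

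GPI, the glucose phosphate isomerase at the point where glycolysis and the pentose phosphate pathway part (ENSG00000105220, plus strand of chr19:34359480-34402413), ranged from 796 to 881 CPM (median 847) after siCHKA and from 1166 to 1397 CPM (median 1302) after siNT. The groups lay well apart, and both siCHKA sets gave nearly the same values. Its log2 fold change of -0.63 (standard error 0.06) had an adjusted p of 3.06e-08. TPI1, which interconverts the triose phosphates, had a median of 642 CPM (612 to 674) against 888 CPM (839 to 1016). It fell by 0.49 on the log2 scale (adjusted p = 5.18e-07), again without overlap.

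Among the enzymes of the lower part of the pathway, ENO1, PKM and GAPDH fell and PGK1 and PGAM1 did not pass. ENO1 (enolase) had a median of 2352 CPM (2160 to 2490) in siCHKA and 3119 CPM (2763 to 3478) in siNT samples, a log2 fold change of -0.42 (adjusted p = 1.14e-05). PKM (pyruvate kinase) had a median of 1438 CPM (1399 to 1596) against 1812 CPM (1749 to 2128), a log2 fold change of -0.35 (adjusted p = 5.75e-05). Neither gene showed overlap between groups. GAPDH, often used as a reference transcript, did overlap, with a median of 2697 CPM (2504 to 3118) against 3264 CPM (3056 to 3581). It fell by 0.26 on the log2 scale (adjusted p = 0.00133), a call that was lost with scaling by library size alone (-0.11, adjusted p = 0.0774). PGK1 (phosphoglycerate kinase) spanned 1341 to 1836 CPM after siCHKA and 1368 to 1949 CPM after siNT, nearly the same range, with a log2 fold change of -0.02 (adjusted p = 0.86). PGAM1 (phosphoglycerate mutase) had medians of 146 and 162 CPM and a log2 fold change of -0.13 (adjusted p = 0.0798), which passed without siNT replicate 6 (-0.18, adjusted p = 0.015) and with siCHKA replicates 2, 4 and 6 only (-0.18, adjusted p = 0.0466).

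ALDOC was the member that rose most. The brain-type aldolase (ENSG00000109107, minus strand of chr17:28573115-28576948) ranged from 180 to 195 CPM (median 189) after siCHKA and from 96.0 to 131 CPM (median 106) after siNT. The lowest siCHKA sample lay above the highest siNT sample, and the siCHKA samples were tightly grouped. The fold change on the log2 scale was 0.77 ± 0.08 (standard error, adjusted p = 1.49e-07) and was nearly the same in both siCHKA sets. The more abundant ALDOA did not pass, with medians of 1014 and 1029 CPM and a log2 fold change of 0.03 (adjusted p = 0.714). The platelet-type phosphofructokinase PFKP rose by 0.26 on the log2 scale (260 against 216 CPM by the medians, adjusted p = 0.00771), although its highest siNT sample at 265 CPM lay above most siCHKA samples.

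The liver- and muscle-type phosphofructokinases and both hexokinases did not pass. PFKL had a log2 difference of 0.09 (adjusted p = 0.11), which passed with replicates 1, 3 and 5 only (0.14, adjusted p = 0.0473), with at least 10 counts in every sample (0.12, adjusted p = 0.0385) and with library-size scaling (0.24, adjusted p = 0.000388). PFKM had a log2 difference of -0.09 (adjusted p = 0.103), which passed without siNT replicate 3 (-0.13, adjusted p = 0.0268) and with DESeq2 (-0.10, adjusted p = 0.0431). HK2 had medians of 153 and 141 CPM and a log2 fold change of 0.13 (adjusted p = 0.219). HK1, which starts glycolysis at the mitochondrial surface, was uneven within the siCHKA group. Replicates 2, 4 and 6 held 155 to 164 CPM, below all siNT samples (200 to 257 CPM), while replicates 1, 3 and 5 held 231 to 256 CPM, inside the siNT range. Its log2 fold change of -0.18 over all samples (adjusted p = 0.214) was 0.10 with replicates 1, 3 and 5 (adjusted p = 0.254) and -0.52 with replicates 2, 4 and 6 (adjusted p = 1.39e-05).

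Summed over the 15 genes, transcripts for glucose uptake and glycolysis took 1.21 to 1.35% of the reads on genes in siCHKA samples (mean 1.27% ± 0.05 SD, n = 6) and 1.28 to 1.48% in siNT samples (mean 1.37% ± 0.07 SD, n = 6). These ranges overlapped. On the CPM scale, with TMM scaling, the same sum was 11613 to 12721 after siCHKA and 13250 to 16015 after siNT, without overlap. Per kilobase of exon, GAPDH was the highest of all members at 1369 RPKM (CPM per kilobase of exon) in siNT samples, followed by ENO1 at 598 and LDHB at 431 RPKM. By mean CPM in siNT samples, PKM (1863), PGK1 (1605), LDHA (1501) and GPI (1299) also lay above LDHB (1285), so this order depends on the exon lengths used.

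**Figure D2:**
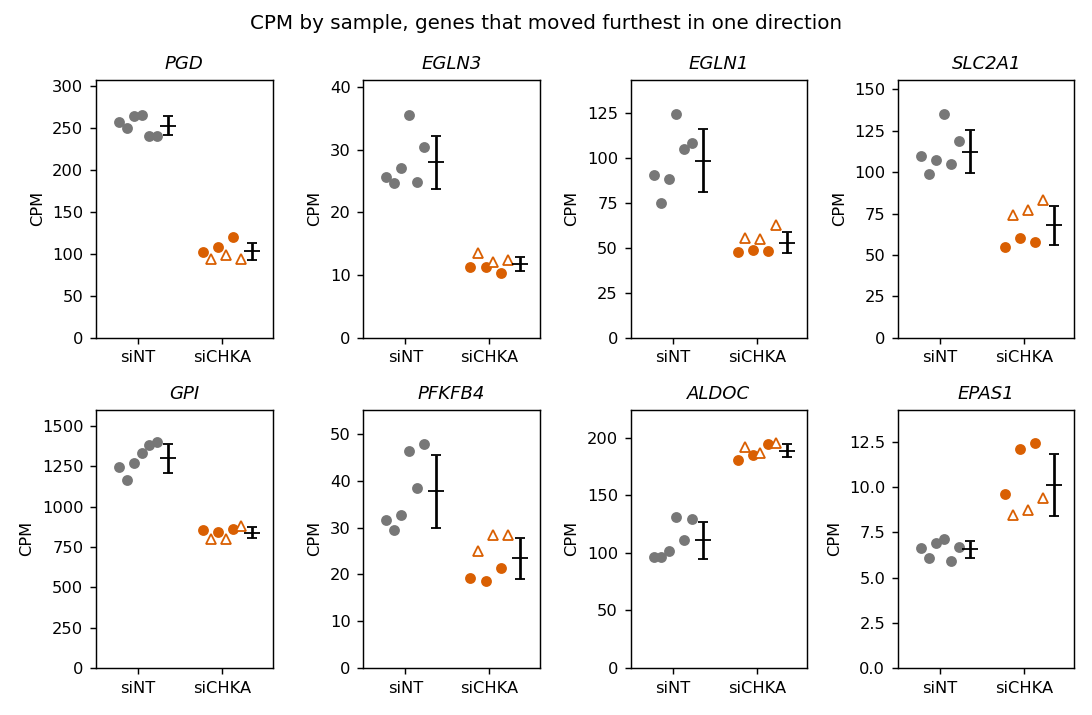
CPM of 8 genes in each sample (points, with siCHKA replicates 2, 4 and 6 as open triangles; bars, mean ± SD of 6 samples), in siNT and siCHKA samples on axes that start at 0. The siCHKA samples lie below all siNT samples for PGD, EGLN3, EGLN1, SLC2A1, GPI and PFKFB4 and above all of them for ALDOC and EPAS1.

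At the lactate step, LDHB and SLC16A1 fell slightly and LDHA and SLC16A3 did not pass. LDHB, the heart-type lactate dehydrogenase subunit, had a median of 1097 CPM (1011 to 1221) after siCHKA and 1274 CPM (1216 to 1373) after siNT, with a slight overlap, and fell by 0.21 on the log2 scale (adjusted p = 0.00509). That call was lost with siCHKA replicates 1, 3 and 5 only (-0.12, adjusted p = 0.117) and with scaling by library size alone (-0.05, adjusted p = 0.338). SLC16A1, a monocarboxylate carrier, had a median of 211 CPM (202 to 222) against 245 CPM (231 to 280), without overlap. It fell by 0.23 on the log2 scale (adjusted p = 0.000874), but not past the threshold with library-size scaling (-0.08, adjusted p = 0.181). LDHA, the muscle-type subunit, had a log2 difference of 0.03 (adjusted p = 0.704) and SLC16A3, the carrier that exports lactate from glycolytic cells, of 0.10 (adjusted p = 0.253). With library-size scaling both passed as higher, LDHA at 0.19 (adjusted p = 0.02) and SLC16A3 at 0.26 (adjusted p = 0.00478). LDHA shares sequence with pseudogenes, which held reads equal to 3.42% of its own.

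The bifunctional PFKFB enzymes make and remove the fructose bisphosphate that activates phosphofructokinase, and their transcripts moved in opposite directions. PFKFB2, the heart-type enzyme (ENSG00000123836, plus strand of chr1:207034366-207081024), ranged from 70.3 to 83.2 CPM (median 78.8) after siCHKA and from 47.0 to 60.7 CPM (median 56.2) after siNT. It rose by 0.49 on the log2 scale (standard error 0.06, adjusted p = 4.10e-06), with all siCHKA samples above all siNT samples. PFKFB4 (ENSG00000114268, minus strand of chr3:48517684-48562015) ranged from 18.6 to 28.4 CPM (median 23.2) after siCHKA and from 29.5 to 47.8 CPM (median 35.6) after siNT. It fell without overlap, by 0.67 on the log2 scale (standard error 0.13, adjusted p = 0.00034), and by more with replicates 1, 3 and 5 (0.93) than with 2, 4 and 6 (0.47), a difference not tested. PFKFB3, the isoform with the strongest bias toward synthesis, had a median of 40.1 CPM (35.2 to 50.1) against 51.4 CPM (44.3 to 65.0) and overlapped. It fell by 0.38 (adjusted p = 0.0031), a call lost with replicates 2, 4 and 6 only (-0.25, adjusted p = 0.0561) and with library-size scaling (-0.23, adjusted p = 0.0619).

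Pyruvate dehydrogenase kinases switch off pyruvate dehydrogenase and so the oxidation of pyruvate inside mitochondria. PDK2 rose from a median of 18.5 CPM (17.5 to 20.4) in siNT to 22.3 CPM (20.4 to 24.0) in siCHKA samples, a log2 fold change of 0.25 (adjusted p = 0.00146). With the first count file of each sample only, a fraction of the reads, it did not pass (0.19, adjusted p = 0.0906). PDK1, a HIF target, held 86.5 to 93.5 CPM in siCHKA replicates 1, 3 and 5 and 128 to 137 CPM in replicates 2, 4 and 6, against 89.4 to 112 CPM in siNT samples. Replicates 2, 4 and 6 therefore stood above every siNT sample and the others did not. The log2 fold change was 0.19 over all samples (adjusted p = 0.163), -0.12 with replicates 1, 3 and 5 (adjusted p = 0.194) and 0.44 with replicates 2, 4 and 6 (adjusted p = 8.64e-05). PDK1 also passed with the first count file only (0.31, adjusted p = 0.0356) and with library-size scaling (0.35, adjusted p = 0.0189). PDK3 had a log2 difference of 0.10 (adjusted p = 0.197), which passed with replicates 1, 3 and 5 only (0.19, adjusted p = 0.0359), and PDK4 was at 0.161 to 0.753 CPM after siCHKA and 0.0973 to 0.412 CPM after siNT, near the floor of 3 counts.

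The prolyl hydroxylase genes held the largest changes after PGD. EGLN3, a prolyl hydroxylase that is itself induced by low oxygen (ENSG00000129521, minus strand of chr14:33924227-34462774), ranged from 10.2 to 13.5 CPM (median 11.7) after siCHKA and from 24.7 to 35.5 CPM (median 26.4) after siNT. The siCHKA mean was 42.2% of the siNT mean, and the groups lay far apart. The fold change on the log2 scale was -1.23 ± 0.09 (standard error, adjusted p = 6.17e-09). EGLN1, the main hydroxylase acting on HIF alpha in normal oxygen (ENSG00000135766, minus strand of chr1:231363751-231422287), ranged from 48.0 to 62.8 CPM (median 51.8) after siCHKA and from 75.2 to 125 CPM (median 97.8) after siNT. The siNT samples were spread widely, yet none reached down to the siCHKA samples. The fold change on the log2 scale was -0.89 ± 0.10 (standard error, adjusted p = 1.01e-06).

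EPAS1, which encodes a HIF alpha subunit (ENSG00000116016, plus strand of chr2:46293667-46386697), rose from a median of 6.69 CPM (5.94 to 7.12) to 9.50 CPM (8.46 to 12.4), without overlap. Its fold change on the log2 scale was 0.62 ± 0.11 (standard error, adjusted p = 8.54e-05), at 0.80 with replicates 1, 3 and 5 and 0.43 with replicates 2, 4 and 6. HIF1A, the far more abundant alpha subunit, had medians of 179 and 198 CPM and a log2 fold change of -0.14 (adjusted p = 0.0698). It lay at 159 to 167 CPM in replicates 2, 4 and 6, below every siNT sample (181 to 210 CPM), and at 190 to 197 CPM in replicates 1, 3 and 5. With replicates 2, 4 and 6 only it passed (-0.27, adjusted p = 0.000704), and it also passed without siCHKA replicate 1 (-0.17, adjusted p = 0.0342), without siCHKA replicate 5 (-0.17, adjusted p = 0.0355) and without siNT replicate 2 (-0.17, adjusted p = 0.041).

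The hypoxia targets did not move together. Of the 7 tested, CA12 fell, ANKRD37 rose and 5 did not pass, and in all 7 the siCHKA replicates 1, 3 and 5 did not overlap replicates 2, 4 and 6, being the lower set in 6. Over all members the sets did not overlap in 25 of 39, in both directions (13 with replicates 1, 3 and 5 lower and 12 higher), beside 47.5% of all genes tested (22.9% with replicates 1, 3 and 5 lower and 24.6% higher). CA12, a membrane carbonic anhydrase that hydrates carbon dioxide outside the cell, had a median of 66.8 CPM (58.6 to 71.9) after siCHKA and 91.0 CPM (85.6 to 97.3) after siNT. It was lower in every siCHKA sample, with a log2 difference of -0.48 ± 0.06 (standard error, adjusted p = 1.81e-06), and was the exception among the 7, with replicates 2, 4 and 6 the lower set.

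VEGFA, the angiogenic growth factor (ENSG00000112715, plus strand of chr6:43770184-43786487), differed in direction between the sets. Replicates 1, 3 and 5 held 81.3 to 86.1 CPM, replicates 2, 4 and 6 held 130 to 135 CPM, and the siNT samples lay between them at 103 to 125 CPM, with no overlap. The fold change over all samples, -0.01 on the log2 scale (adjusted p = 0.976), was -0.38 with replicates 1, 3 and 5 (adjusted p = 8.74e-05) and 0.29 with replicates 2, 4 and 6 (adjusted p = 0.000706). Both fits used the same siNT samples, and the sets were noticed in these counts, so neither p-value allows for that choice.

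ANKRD37, an ankyrin repeat protein gene with a low level here, had a median of 4.64 CPM (3.15 to 5.87) against 2.64 CPM (2.47 to 3.81). Replicates 2, 4 and 6 stood at 5.27 to 5.87 CPM, above all siNT samples, and replicates 1, 3 and 5 overlapped them. Its rise of 0.65 on the log2 scale (standard error 0.18, adjusted p = 0.00411) was not called with replicates 1, 3 and 5 only (0.27, adjusted p = 0.188) or with the first count file only (0.66, adjusted p = 0.0546). BNIP3, a mitophagy receptor, had a log2 difference of 0.11 (adjusted p = 0.402), at -0.11 with replicates 1, 3 and 5 and 0.30 with replicates 2, 4 and 6 (adjusted p = 0.0243). Reads on BNIP3 pseudogenes equalled 29.5% of its own, so its level is uncertain. Its relative BNIP3L had a log2 difference of -0.01 (adjusted p = 0.898), at -0.12 with replicates 1, 3 and 5 and 0.09 with replicates 2, 4 and 6, neither called. P4HA1, a collagen prolyl hydroxylase, had a log2 difference of -0.12 (adjusted p = 0.253), at -0.24 with replicates 1, 3 and 5 (adjusted p = 0.0476) and -0.01 with replicates 2, 4 and 6. CA9 stood at 0.323 to 1.06 CPM after siCHKA and 0.171 to 1.17 CPM after siNT, and ADM at 0 to 0.227 and 0.0856 to 0.412 CPM, too few reads to show a difference.

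**Figure D3:**
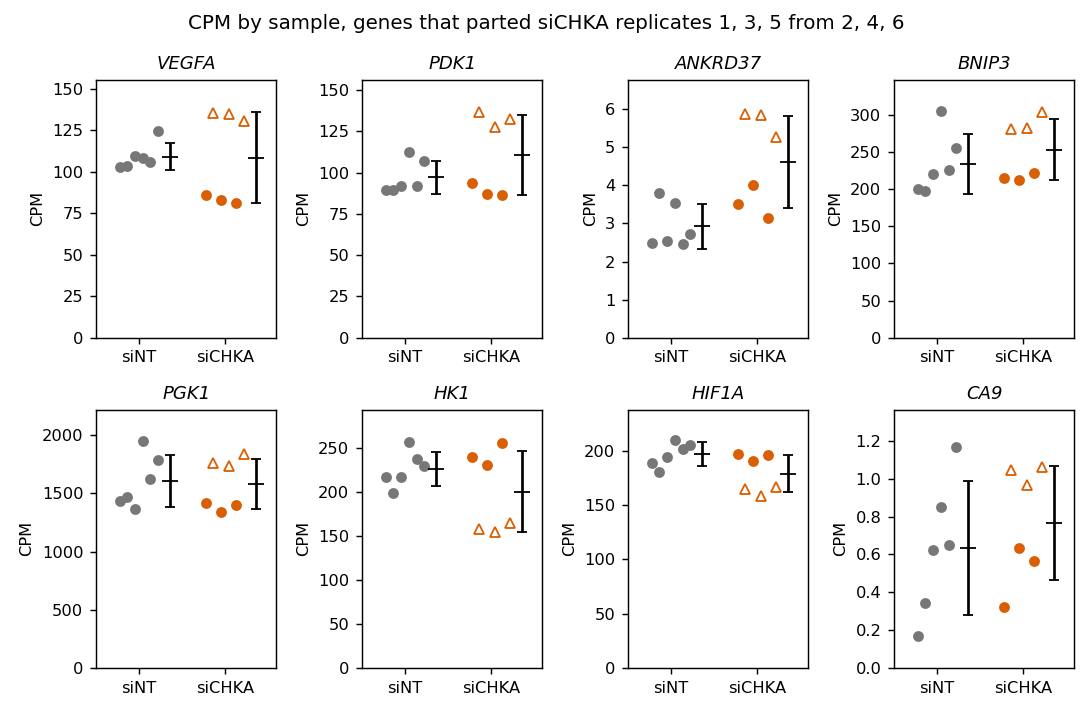
CPM of 8 genes in each sample (grey, siNT; filled orange, siCHKA replicates 1, 3 and 5; open triangles, siCHKA replicates 2, 4 and 6; bars, mean ± SD of 6 samples), on axes that start at 0. For VEGFA the siNT samples lie between the siCHKA sets, and for HK1 and HIF1A replicates 2, 4 and 6 are the lower set.

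**Figure D4:**
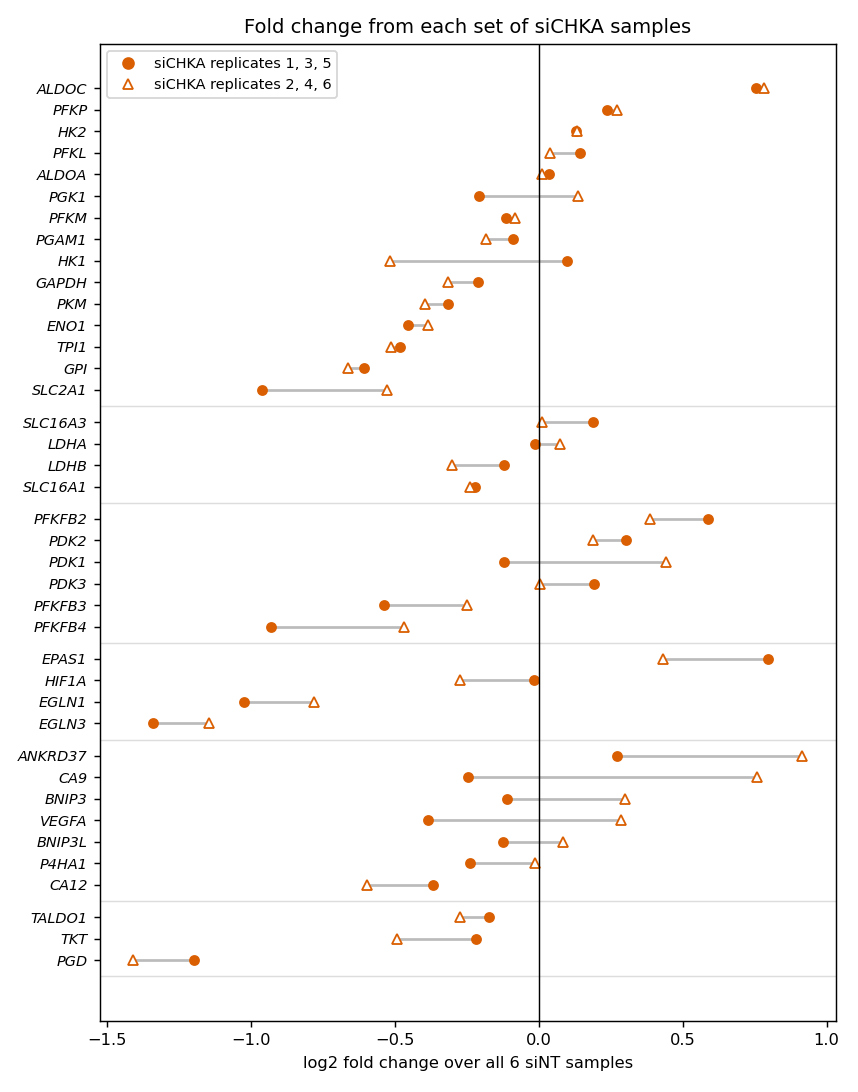
Log2 fold change of each tested gene against all 6 siNT samples (x axis), fitted with siCHKA replicates 1, 3 and 5 only (filled circles) or replicates 2, 4 and 6 only (open triangles), grouped by role. Both fits share the siNT samples. PGD lies at -1.20 and -1.41 and VEGFA at -0.38 and 0.29.

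HIF binds DNA at a core of the letters ACGTG or GCGTG. Promoters (250 bases before to 50 bases after the start, from RefSeq on GRCh38.p14) were found for 37 of the 41 members, with 66 promoters in all, and VEGFA, SLC16A1, BNIP3L and PFKFB2 had no entry. The word ACGTG, searched on both strands, occurred in 25 of these 66 promoters (37.9%) and in 21.4% of 35116 promoters of all genes. In 9 of the 25 it lay inside the palindrome CACGTG, to which other factors bind. GCGTG occurred in 40.9% of the member promoters and in 36.5% of all promoters. Of 21 members with ACGTG, 5 were oxygen-sensing or hypoxia target genes, and the 25 bases around the word nearest to the start are shown for these to set the EGLN1 promoter beside those of targets that did not move like it. The word, or its other-strand form CACGT, is in capitals.
EGLN1, minus strand of chr1:231422286-231422310: gccgtggtgtACGTGcagagcgcgc
CA9, plus strand of chr9:35673900-35673924: gtttccaatgCACGTacagcccgta
BNIP3, minus strand of chr10:131982042-131982066: cacgcgccgcACGTGccacacgcac
P4HA1, minus strand of chr10:73096938-73096962: tgatcgagctCACGTagcgagggct
ANKRD37, plus strand of chr4:185396688-185396712: gtgtttgtgtACGTGcggccgtggc
The word lay 13 bases before the start in EGLN1, 18 in CA9, 86 in P4HA1, 133 in BNIP3 and 143 in ANKRD37. The word shown for BNIP3 was inside the palindrome CACGTG, and the words shown for the other genes were not. EGLN1 fell while ANKRD37 rose and CA9, BNIP3 and P4HA1 did not pass in the test above. A match is a description of the sequence and not of binding. Among other members that moved most, the promoters of PGD and ALDOC held the word and those of EGLN3 did not within these windows.

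Ratios of related transcripts within a library do not depend on scaling between libraries, and 15 were tested. Of these, 8 passed an exact permutation test over samples (two-sided, adjusted over the 15), 3 higher and 5 lower after siCHKA. The smallest p that this test allows is 0.00216 before adjustment, and the smallest adjusted p reached here was 0.00649. ALDOC gained on ALDOA by 0.75 on the log2 scale (standard error 0.06, adjusted p = 0.00649), in 6 of 6 samples. Its share of the aldolase transcripts per kilobase rose from 13.7% ± 1.19 to 21.0% ± 0.49 (SD, n = 6 each). The test was of the ratios, and shares per kilobase were not tested. EPAS1 gained on HIF1A by 0.75 (standard error 0.07) with the same adjusted p, from 2.30% to 3.83% of the HIF alpha transcripts per kilobase, and SLC16A3 gained on SLC16A1 by 0.34 (standard error 0.07).

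Within the PFKFB family, PFKFB2 went from 26.8% ± 3.50 of the transcripts per kilobase in siNT samples to 42.0% ± 5.28 in siCHKA samples (SD, n = 6 each), while PFKFB3 went from 43.2% to 37.0% and PFKFB4 from 30.0% to 21.0%. The PFKFB3 to PFKFB2 ratio differed by -0.88 and the PFKFB4 to PFKFB2 ratio by -1.17 on the log2 scale (both adjusted p = 0.00649, exact permutation test). The EGLN3 to EGLN1 ratio differed by -0.35 (adjusted p = 0.0108), so the stronger fall of EGLN3 was itself past the threshold. The PFKM to PFKL ratio differed by -0.19 (adjusted p = 0.0139, lost with replicates 2, 4 and 6 only, at -0.12 and adjusted p = 0.0893). The LDHB to LDHA ratio differed by -0.25 (adjusted p = 0.0325), and it was not past the threshold in 7 of the 12 fits that left out 1 sample (siCHKA replicate 2, 4 or 6, or siNT replicate 1, 2, 3 or 5), with values of -0.21 to -0.25 in those 7. It was also lost with replicates 1, 3 and 5 only (-0.11, adjusted p = 0.286) and with the first count file only (-0.23, adjusted p = 0.0505), and was -0.38 with replicates 2, 4 and 6 (adjusted p = 0.0223). The HK2 to HK1 ratio differed by 0.35 and did not pass (adjusted p = 0.0974). It was 0.04 with replicates 1, 3 and 5 and 0.66 with replicates 2, 4 and 6 (adjusted p = 0.0223), and it also passed with the first count file only (0.41, adjusted p = 0.0446), without siCHKA replicate 1 (0.41, adjusted p = 0.0433) or 5 (0.43, adjusted p = 0.0433). Both PFKP to PFKL (0.17, adjusted p = 0.10) and BNIP3L to BNIP3 (-0.12, adjusted p = 0.10) passed without siNT replicate 4 (0.24 and -0.16), and BNIP3L to BNIP3 with replicates 2, 4 and 6 only (-0.22, adjusted p = 0.0357). The PDK3 to PDK1 ratio, at -0.06 over all samples (adjusted p = 0.768), passed in both sets but in opposite directions, at 0.32 with replicates 1, 3 and 5 and -0.44 with replicates 2, 4 and 6 (adjusted p = 0.0223 each, with the same siNT samples). The PDK2 to PDK1 ratio, at 0.09 (adjusted p = 0.767), passed with replicates 1, 3 and 5 only (0.43, adjusted p = 0.0397) and was -0.25 with replicates 2, 4 and 6 (adjusted p = 0.14).

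**Figure D5:**
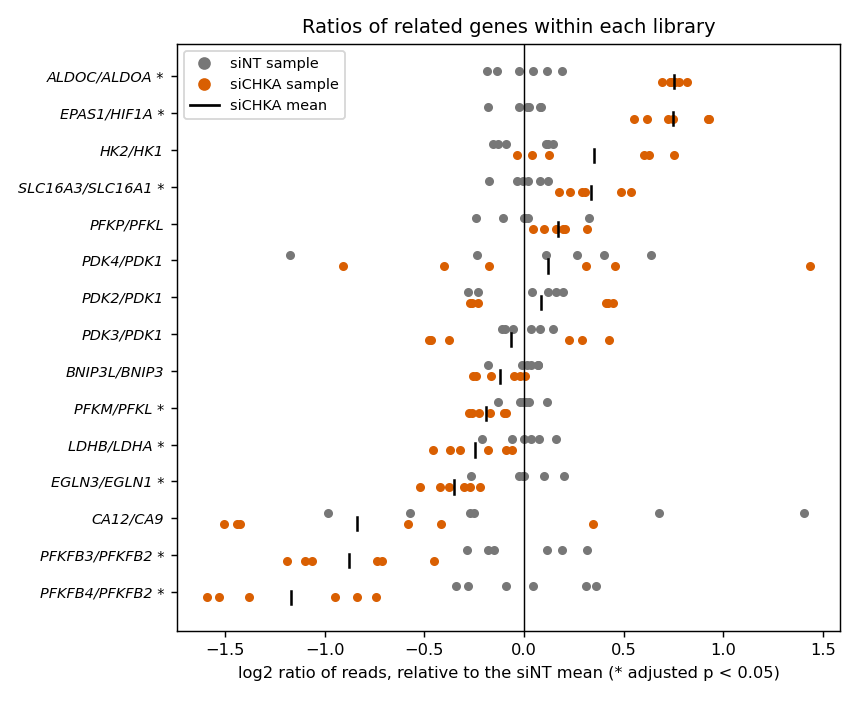
Log2 ratio of the reads of 2 related genes in each library (x axis, relative to the siNT mean of that ratio; grey, siNT samples; orange, siCHKA samples; black line, siCHKA mean), with an asterisk for an adjusted p below 0.05. ALDOC to ALDOA and EPAS1 to HIF1A stand to the right and PFKFB3 and PFKFB4 to PFKFB2 to the left, while the siCHKA samples of PDK3 to PDK1 lie on both sides of 0.

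A wider list of genes of the same pathways held 55 further tested genes, of which 20 fell and 21 rose, 74.5% called in all (36.4% lower and 38.2% higher) beside 62.2% of all genes tested (30.1% lower and 32.1% higher). Among 12 genes of glycolysis and glucose handling, 2 fell and 4 rose. The neuronal enolase ENO2 rose by 1.11 on the log2 scale (adjusted p = 2.13e-05) while ENO1 fell, and GYS1 (glycogen synthase) rose by 0.38, whereas MLXIP, a glucose-responsive transcription factor, fell by 0.63. Among 7 further pentose phosphate genes, 3 fell and 3 rose. PGLS, the lactonase just before PGD in the oxidative arm, rose by 0.43 (adjusted p = 4.26e-06), and PRPS1, which draws ribose phosphate into nucleotide synthesis, fell by 0.45, so the fall of all 3 members was not shared by the whole pathway.

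Of 11 genes of pyruvate oxidation, 3 fell and 6 rose (27.3% and 54.5%, beside 30.1% and 32.1% of all genes tested). DLAT, the E2 subunit of the pyruvate dehydrogenase complex, fell by 0.71 (adjusted p = 6.22e-09) and PDHA1 by 0.18 (not called with replicates 1, 3 and 5 only, at -0.11 and adjusted p = 0.145), while the activating phosphatase PDP1 rose by 0.50 and its regulator PDPR by 0.54. Of 5 further oxygen-sensing genes, ARNT, the partner of HIF alpha, fell by 0.14 (adjusted p = 0.0473), a call lost with replicates 1, 3 and 5 only (-0.06, adjusted p = 0.436). The other 4 rose, among them CITED2 by 0.53 and HIF1AN, the asparaginyl hydroxylase that inhibits HIF, by 0.42 (0.63 with replicates 1, 3 and 5 and 0.19 with replicates 2, 4 and 6). Of 20 further hypoxia targets, 11 fell and 4 rose, with PLOD2 (-0.84), STC2 (-0.61) and HILPDA (-0.56) lower and NDRG1 (0.43) and KDM4B (0.25) higher. PLOD2 was at -1.25 with replicates 1, 3 and 5 and -0.54 with replicates 2, 4 and 6, STC2 at -0.93 and -0.35, and HILPDA at -0.88 and -0.32, all still called. NDRG1 was not called with replicates 1, 3 and 5 only (0.27, adjusted p = 0.161), nor KDM4B with replicates 2, 4 and 6 only (0.13, adjusted p = 0.157). In 15 of these 20 the siNT samples also split without overlap into replicates 1 to 3 and 4 to 6, with 1 to 3 lower in 14. The members did so in 19 of 39 (18 with 1 to 3 lower), beside 29.4% of all genes tested (16.2% with 1 to 3 lower and 13.2% higher). This split of the siNT samples was noticed in the values and was not tested.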

How the data were processed

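Total RNA of the 12 C4-2 samples was made into TruSeq libraries and sequenced as single-end reads of 40 bases. The authors aligned the reads to GRCh37 (Ensembl 64) with TopHat 2.0.4, counted them on genes with HTSeq-count 0.5.3p9, and deposited the counts without normalization, with 4 files for each sample. The counting passed over reads that aligned to more than 1 place (26.1% to 30.6% of the reads in a sample) and reads that fell on overlapping genes, which lowers genes with near-identical copies. The strand setting is not given in the sources used here, so reads from a gene and an antisense partner cannot be told apart.

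The files of a sample differed by no more than sampling noise (chi-square per degree of freedom 0.983 to 1.01) and were summed. Rows that name no gene were left out of library sizes. Symbols came from GENCODE 44 by identifier, which matched 44824 of 54127 (82.8%), and its GRCh38 coordinates are printed because the files give none. TXNIP, EGLN2 and PECAM1, of the wider and marker lists, had no matching identifier. The 41 members, the wider list of 71 genes and the marker lists were chosen with earlier results of these data known. The text names all 41 members, CHKA and, per part of the wider list and direction, up to 3 called genes of at least 10 CPM with the largest change.

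The test was edgeR's quasi-likelihood test (version 4.0.16, R 4.3.3), after filterByExpr and TMM scaling, of siCHKA against siNT, two-sided and with no covariate. P-values were adjusted over 14501 genes by the Benjamini-Hochberg method, with a threshold of 0.05. CPM are relative to the TMM-scaled library size, and RPKM are CPM per kilobase of exon. Fold changes are on the log2 scale. Ratios used counts with a pseudocount of 0.5. The study calls the samples biological replicates, 6 for 1 analysis and triplicates for another, and the labels do not say whether they came from separate cultures, so p-values measure the spread between these samples, and intervals of counts cover counting error only. On simulated counts with 2-fold changes over 14376 genes, edgeR recovered 95.9% of 197 changed genes with 6 false calls and DESeq2 1.42.0 recovered 96.4% with 21. The simulation had few changed genes, raised and lowered about equally, and samples without sets. In the real data most genes were called and the samples formed sets, so the simulation gives no error rate for them.

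The alternatives were the replicate block, RLE scaling, DESeq2, dropping the expression filter, a minimum of 10 counts per sample, the first count file only, each sample left out in turn and a pseudocount of 2 for ratios. Fits with siCHKA replicates 1, 3 and 5 or 2, 4 and 6 only followed sets seen in the counts. Scaling by library size alone was also chosen after seeing the data.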

Additional observations from a re-analysis of the deposited data

Results flagged for a closer look

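In 3 of 80 groups of 6 samples, 1 sample stood further from the others than Dixon's 95% limit allows, when chance flags about 1 in 20 groups, or about 4 here. PKM was at 1596 CPM in siCHKA replicate 5 and at 1399 to 1465 CPM in the other siCHKA samples, a gap of 0.651 of the whole range. VEGFA was at 125 CPM in siNT replicate 6 and at 103 to 110 CPM in the other siNT samples, a gap of 0.666 of the range. TKT was at 496 CPM in siNT replicate 4 and at 433 to 449 CPM in the other siNT samples, a gap of 0.724 of the range. PKM and TKT were called lower in each fit that left out 1 sample, at -0.38 to -0.32 and -0.40 to -0.32 on the log2 scale. VEGFA was called in none of those fits, at -0.08 to 0.06.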

How the results depend on the processing

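Of the 22 members called, 15 kept their call and direction in all 21 alternatives, and no called member changed direction. Scaling by library size alone gave 14 higher members, a member median of 0.0375 and 12 lower genes of the wider list, and turned PFKM (0.057), PGK1 (0.13), PGAM1 (0.020), HIF1A (0.013), VEGFA (0.15), BNIP3L (0.14) and P4HA1 (0.038) positive. Under it HK2 (0.29), PFKL (0.24), ALDOA (0.18), LDHA (0.19), SLC16A3 (0.26), PDK1 (0.35), PDK3 (0.25) and BNIP3 (0.27), not called in the main fit, were called higher. That scaling moved the median of all genes by 0.15. With siCHKA replicates 1, 3 and 5 only, HK1 (0.10), LDHA (-0.014), PDK1 (-0.12), CA9 (-0.25), BNIP3 (-0.11) and the PDK3 to PDK1 ratio (0.32, adjusted p = 0.0223) reversed. With replicates 2, 4 and 6 only, PGK1 (0.14), VEGFA (0.29), BNIP3L (0.086) and the PDK2 (-0.25) and PDK4 (-0.26) to PDK1 ratios did. ALDOA reversed with no filter (-0.0025), PGK1 (0.0043), VEGFA (0.021) and BNIP3L (0.013) with at least 10 counts in every sample, and VEGFA (0.020), BNIP3L (0.016) and the PDK2 (-0.087) and PDK4 (-0.48) to PDK1 ratios with the first count file only. The PDK4 to PDK1 ratio was -0.015 with a pseudocount of 2. The cause of these reversals was not tested.

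With each sample left out in turn, values that crossed 0 ranged from -0.073 to 0.029 for PGK1, -0.078 to 0.062 for VEGFA, -0.055 to 0.027 for BNIP3L, -0.0099 to 0.043 for ALDOA, -0.014 to 0.084 for LDHA, -0.16 to 0.020 for PDK3 to PDK1 and -0.15 to 0.32 for PDK4 to PDK1, none of which was called in any of these fits. The members called numbered 16 to 17 lower and 6 higher in these fits, and CHKA fell by 3.79 to 4.09.

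Samples that share a replicate number did not shift alike in the 2 groups (correlations of -0.40 to 0.32, mean -0.04, and 1 of 6 samples closest to its own number), so the numbers were not taken as pairs. In the replicate block fit, 4273 genes were lower and 4494 higher, and no member changed its call. Depth limited PDK4, ADM and CA9, which had 72, 36 and 145 reads in all.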
